A study of Rattus norvegicus with 5 samples.

Results

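Transcripts of 10 enzymes that make, lengthen and desaturate fatty acids (Acly, Acaca, Acss2, Fasn, Elovl6, Elovl5, Fads1, Fads2, Scd and Me1) were examined in FRT cells, a thyroid epithelial line of the Fischer rat, grown as 3D follicles or as 2D monolayers. The genes were chosen by name and found on the array through the RefSeq accession of each probe, and all 10 were among the 15154 genes with a symbol. RNA was taken on day 5 of culture. For 3D culture, cells were embedded in Matrigel, a basement membrane extract in which they form polarized follicles around a lumen, and 4 such 3D cultures were each labelled with Cy5. They were set against a single pool of 4 confluent 2D monolayer cultures, labelled with Cy3 and present on every array, and on 1 dye-swap array the 3D cultures, pooled, took Cy3 while the 2D pool took Cy5. No agent or treatment other than the culture format was given in the labels, and the cells are 1 established line.

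Cytosolic fatty acid synthesis starts from acetyl-CoA, which is made from citrate or from acetate, is carboxylated to malonyl-CoA and is built into palmitate with reducing power from NADPH. Elongases then add carbon units and desaturases insert double bonds, yielding the monounsaturated and polyunsaturated chains of membrane lipids. In most mammalian cells these genes are controlled in part by the sterol regulatory element binding proteins, transcription factors that are held in the endoplasmic reticulum when sterols are plentiful and that also control sterol synthesis.

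Of the 10 enzymes, 7 were lower in 3D follicles than in the 2D pool at an FDR below 0.01, and 0 were higher. Across all 15154 genes, 11.5% were lower and 14.4% were higher by the same test, a linear model fitted with limma over the 5 arrays. Those shares count genes too dim to be read. Fitted over only the 9018 genes well above background, 1751 were lower and 2214 higher, and 7 of the enzymes were lower. With a term for the dye in the model 7 of the 10 were again lower, against 12.1% of all genes. With arrays centred on their median in place of loess 0 of the 10 passed, and 7 of all 15154 genes did. The desaturases Fads2 and Fads1 were lowest, followed by Acss2, Fasn, Elovl6, Acly and Acaca, while Elovl5 and Me1 did not pass and Scd was too dim to be read in 3D or in 2D. The same 7 enzymes lay below the 2D level on each of the 5 arrays, as did 16.9% of all genes. The median log2 ratio of the 10 enzymes was -0.43, -0.46, -0.47 and -0.53 on the 4 replicate arrays and -0.67 on the dye-swap array. Their median fitted log2 fold change, with Scd included, was -0.52, against 0.00 over all genes. Among genes well above background it was -0.65, against 0.03 over all such genes. Here and below, every ratio is log2 of 3D over 2D, so that a negative value means less RNA in 3D. In RNA from whole cultures, fewer cells expressing a gene and less RNA per cell cannot be told apart.

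**Figure D1:**
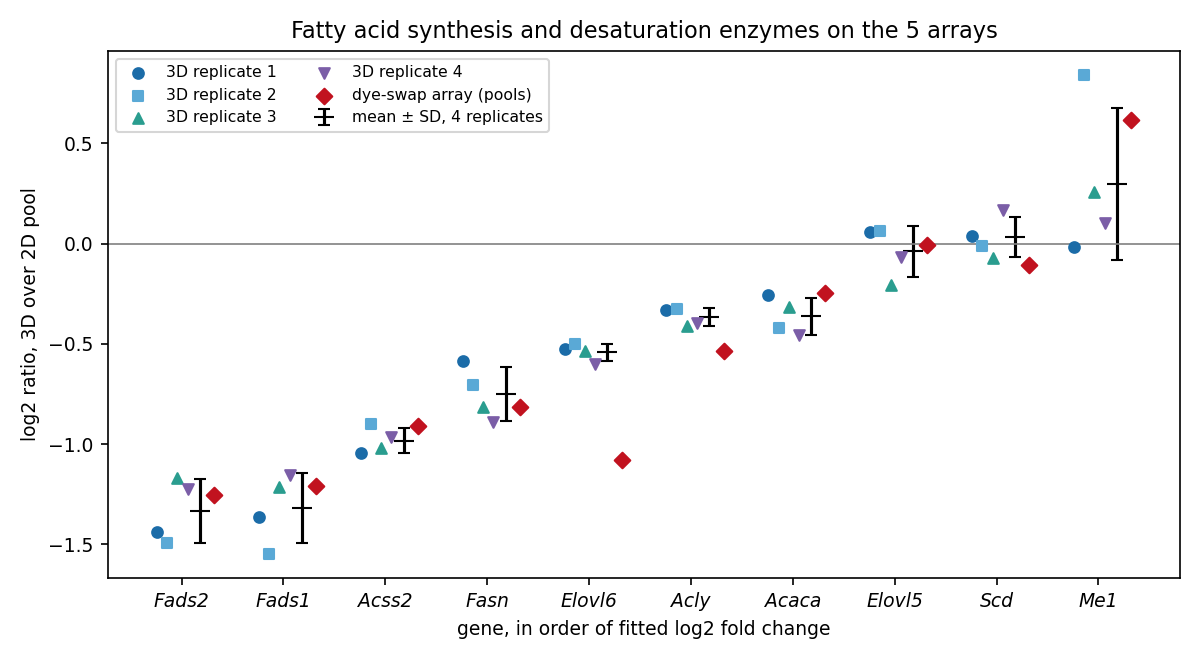
Log2 ratio of 3D over 2D for each enzyme on each array. Circles, squares and triangles are the 4 replicate arrays, the horizontal tick with its bar is their mean and SD, and the red diamond is the dye-swap array made from pools of the same cultures. All 5 values lie below 0 for the 7 genes on the left, and the values of Elovl5, Scd and Me1 lie on both sides of 0. Scd was not well above background in 3D or in 2D.

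All 5 arrays lay on 1 slide and held 58717 spots each, of which 0 were saturated and between 1.12% and 1.60% were flagged. Over all genes, log2 ratios correlated with r of 0.871 to 0.946 between replicate arrays and of 0.734 to 0.765 between the dye-swap array and the replicates. Epithelial identity was visible in both conditions, with all 10 measured epithelial markers well above background, 3 of them higher in 3D (Ocln 0.88, Cdh16 0.53 and Epcam 0.28) and 2 lower (Cldn3 -1.34 and Cldn4 -0.49). Of 11 thyroid markers 5 were well above background, including the transcription factor Pax8, which was higher in 3D (0.71), and Duox2 (0.68). Pax8 was at 0.05 on the dye-swap array and at 0.46 with a dye term, which itself passed (0.41, limma adjusted p = 0.00882). The defining genes Tg, Tshr and Slc5a5 and the transcription factor Nkx2-1 were not well above background in either condition. Of 7 markers of adipocytes, cells rich in these enzymes, only Adipoq was well above background and 0 passed the test. The summed normalized signal of the 7 adipocyte markers was 480 to 515 in 3D and 484 to 507 in 2D, sums that consist largely of the constant of 50 that background correction adds to each gene. Among 8 fibroblast markers 4 were above background and 1, Pdgfra, was higher in 3D (0.55). Col3a1 did not pass, with 1.09, 0.78, -0.07 and -0.10 on the replicates and 0.17 on the dye-swap array. The epithelial marker Cldn7 did not pass either, with -1.59, -1.03, -0.09, 0.04 and, on the dye-swap array, -0.48. The summed signal of the fibroblast list was 736 to 871 in 3D and 682 to 709 in 2D, the same constant included, with Pdgfrb, Dcn, Lum and Thy1 not above background, and its part in the results was not tested. Of 8 leukocyte and 6 endothelial markers, Lyz2 alone passed (-0.20), and it was above background on 1 of 5 arrays in 3D and 2 of 5 in 2D. Because the 2D side was 1 pool, the tests leave out the spread between 2D cultures, and from 4 replicate signs alone an exact two-sided p could not go below 0.125.

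The largest falls were those of the front-end desaturases Fads1 and Fads2, which insert double bonds into polyunsaturated chains, and of Acss2, which turns acetate into acetyl-CoA in the cytosol and nucleus. The sequences around their annotated starts are shown because these 3 genes carried the largest differences. Each window is given in the sense direction of the gene on the build GRCr8, 250 bases before to 50 bases after the start used in a RefSeq table of promoters, which need not be the outermost end of the gene's span. Capitals mark the CCAAT box (CCAAT or ATTGG), the motif of NF-Y, and the GC box (GGGCGG or CCGCCC), the motif of Sp1, on either strand. The windows are Fads1 at chr1:216252442-216252741 (plus strand), Fads2 at chr1:216171984-216172283 (minus strand) and Acss2 at chr3:164464453-164464752 (plus strand).
Fads1: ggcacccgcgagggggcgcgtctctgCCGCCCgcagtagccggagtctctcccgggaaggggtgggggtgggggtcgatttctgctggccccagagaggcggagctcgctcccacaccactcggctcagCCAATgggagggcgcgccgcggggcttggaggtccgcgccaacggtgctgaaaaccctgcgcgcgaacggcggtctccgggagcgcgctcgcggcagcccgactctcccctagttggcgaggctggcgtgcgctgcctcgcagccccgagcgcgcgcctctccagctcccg
Fads2: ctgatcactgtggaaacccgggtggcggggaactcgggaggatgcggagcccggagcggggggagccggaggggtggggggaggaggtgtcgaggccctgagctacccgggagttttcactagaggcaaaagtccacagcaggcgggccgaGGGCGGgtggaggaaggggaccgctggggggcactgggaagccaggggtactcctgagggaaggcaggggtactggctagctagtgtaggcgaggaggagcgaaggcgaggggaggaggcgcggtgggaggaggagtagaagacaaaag
Acss2: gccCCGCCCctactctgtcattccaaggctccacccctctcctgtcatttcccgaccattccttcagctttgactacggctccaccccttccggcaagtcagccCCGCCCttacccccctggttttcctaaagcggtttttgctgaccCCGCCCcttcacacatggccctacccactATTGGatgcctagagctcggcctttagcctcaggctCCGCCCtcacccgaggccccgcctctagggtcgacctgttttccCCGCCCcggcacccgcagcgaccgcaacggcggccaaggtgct
Windows were available for 7 of the 10 enzymes and searched for 4 motifs on both strands. A sterol regulatory element motif, TCACNCCAC with any base at N, was found in 0 of the 7 and in 1.12% of all 33469 rat windows of the same length. With so rare a motif, 0 of 7 cannot set these windows apart from others. A CCAAT box was found in 4 of 7 (Acly, Acss2, Elovl5 and Fads1) and in 37.5% of all windows. A GC box was found in 5 of 7 (Acly, Acss2, Fads1, Fads2 and Me1) and in 33.1% of all windows. The E-box CACGTG was found in Elovl5 alone, and in 6.42% of all windows. The window of Acss2 held 5 GC boxes and 1 CCAAT box, that of Fads1 held 1 of each, and that of Fads2 held 1 GC box. These matches are letters in a window of 300 bases and do not show binding.

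The acetyl-CoA suppliers were both lower in 3D. Acly (chr10:85912402-85964605), the lyase that splits cytosolic citrate, had log2 ratios of -0.33, -0.33, -0.41 and -0.40 on the replicate arrays and -0.54 on the dye-swap array. Its replicate values lay within 0.09 of each other, and the dye-swap value was lower than all 4. The fitted log2 fold change was -0.40 ± 0.04 (SE), or 0.758 of the 2D level (limma adjusted p = 8.21e-05). Acss2 (chr3:164464124-164507607) had ratios of -1.04, -0.90, -1.02 and -0.97, with -0.91 on the dye-swap array. Its normalized signal was 205, 244, 233 and 241 in the 3D replicates and 235 in the 3D pool, against 423, 456, 472 and 470 in the paired 2D channels and 442 on the dye-swap array. The 3D signals did not overlap the readings of the 2D pool, and the spread between 3D replicates was small beside the difference. Acss2 reached 0.511 of the 2D level (-0.97 ± 0.04, SE, limma adjusted p = 2.24e-07). Acss2 minus Acly came to -0.62 ± 0.07 over the replicate arrays (SD, n = 4) and to -0.37 on the dye-swap array, so the acetate enzyme was lower relative to 2D than the citrate enzyme on every array.

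The carboxylase and the synthase that follow were also lower. Acaca (chr10:69511627-69773888), acetyl-CoA carboxylase of the cytosol, which makes malonyl-CoA, had ratios of -0.26, -0.42, -0.32 and -0.45, and -0.25 on the dye-swap array. It was the smallest fall that passed, -0.34 ± 0.05 (SE), or 0.790 of the 2D level (limma adjusted p = 0.000297). The Acaca probe was spotted 2 times, and the SD between its spots within an array was 0.0015 to 0.39. Acaca was dim, with a mean signal of 93.7 ± 4.7 in the 3D replicates (SD, n = 4). The 2D pool, read on the same 4 arrays, gave 120 ± 1.8, an SD of repeat readings of 1 pool. The background correction adds 50 to each, and the size of the fall of Acaca depended on that constant. With no constant added its log2 fold change was -0.67, and with the scanner software's own processed signals it was -0.89, both past the threshold. Fasn (chr10:106570415-106588581), the synthase that builds palmitate, had ratios of -0.59, -0.70, -0.82 and -0.89, and -0.81 on the dye-swap array. Its signal was 3407, 3259, 3083 and 3025 in the 3D replicates and 2968 in the 3D pool, against 5113, 5309, 5425, 5613 and 5216 in the matching 2D channels. Every 3D value was below every reading of the 2D pool, and replicate 1 showed the smallest difference. Fasn was at 0.590 of the 2D level (-0.76 ± 0.05, SE, limma adjusted p = 3.15e-06). With those same alternatives it was at -0.79 and -0.81, and with median centring in place of loess at -0.25, which did not pass (limma adjusted p = 0.518).

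**Figure D2:**
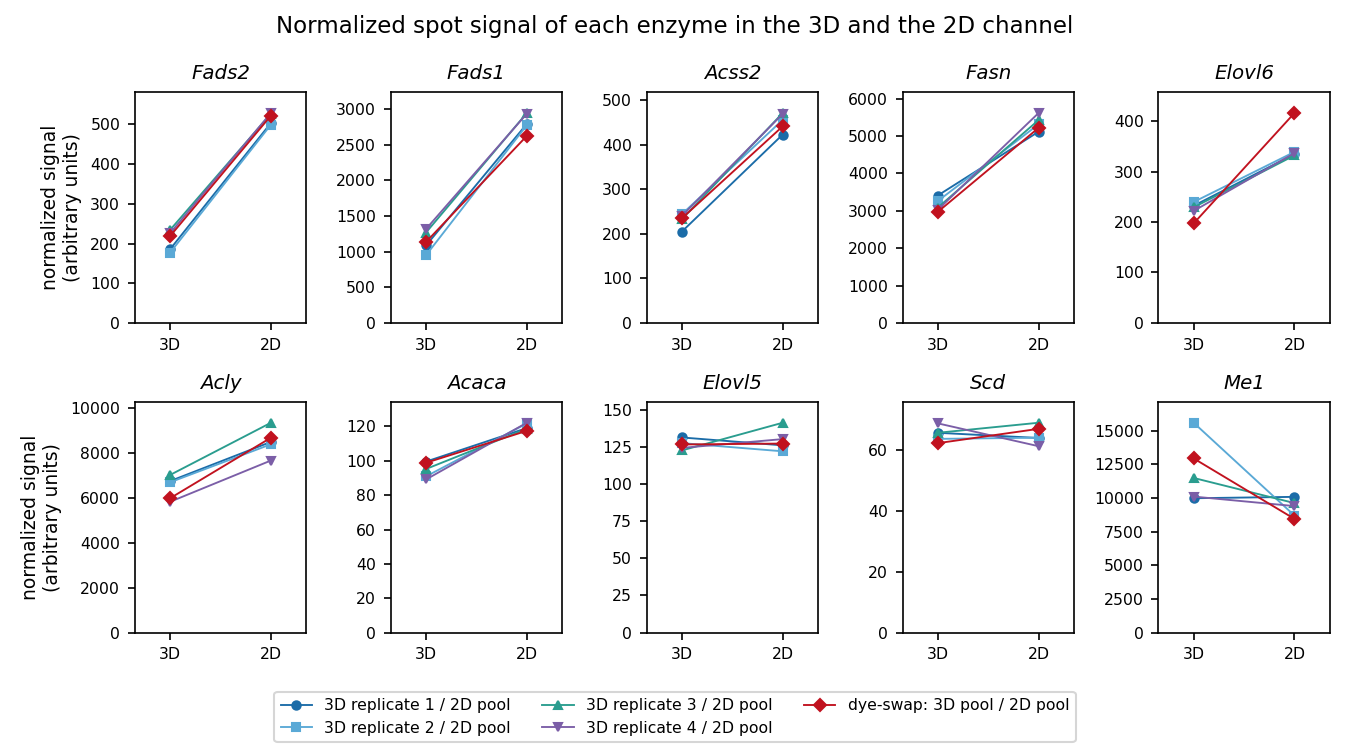
Normalized signal of each enzyme, in arbitrary units that include the added 50, in the 3D channel (left) and the 2D channel (right) of each array. Lines join the 2 channels of an array, the vertical axes start at 0 and differ between genes, and levels of different genes are not comparable. The lines fall to the left for the 7 enzymes from Fads2 to Acaca on all arrays, run in both directions for Elovl5 and Scd, and run apart for Me1.

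Malic enzyme (Me1, chr8:96429057-96540244), which yields NADPH in the cytosol, had ratios near or above 0 and did not pass. Its ratios were -0.01, 0.84, 0.26 and 0.10 on the replicate arrays and 0.62 on the dye-swap array. Replicate 2 stood above the other replicates, and replicate 1 was at the 2D level. The signal was 9979, 15583, 11485 and 10101 in the 3D replicates against 10081, 8690, 9619 and 9397 in the 2D pool, so that the spread lay mostly on the 3D side. The fitted value of 0.36 ± 0.11 (SE) did not pass (limma adjusted p = 0.0333), and without replicate 2 it was 0.24 (limma adjusted p = 0.11). The probe was spotted 10 times, and the SD between spots within an array was 0.03 to 0.07, against an SD of 0.38 between replicates. The other Me1 probe showed the same order of arrays, with -0.07, 0.72, 0.15, 0.04 and 0.32 on the dye-swap array.

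Elongation was represented by Elovl6, which extends palmitate to stearate, and Elovl5, which extends polyunsaturated chains. Elovl6 (chr2:220738095-220845528) had ratios of -0.53, -0.50, -0.54 and -0.60, but -1.08 on the dye-swap array. The replicates agreed closely and the dye-swap value lay far below all of them. Elovl6 passed with all arrays (-0.65 ± 0.08, SE, limma adjusted p = 0.000171), without the dye-swap array (-0.54), as the mean of its probes (-0.41) and with a term for the dye (-0.81), and that term itself passed (0.27, limma adjusted p = 0.00882). With 1 dye-swap array, dye and any other feature of that array cannot be told apart. A dimmer probe of Elovl6, well above background on 1 of 5 arrays in 3D and 4 of 5 in 2D, had -0.21, 0.02, -0.11, -0.22 and, on the dye-swap array, -0.30, a fitted -0.17 that did not pass with every probe as a feature (limma adjusted p = 0.0384). Elovl5 (chr8:87671164-87737618) had ratios of 0.06, 0.06, -0.20, -0.07 and -0.01, on both sides of 0. Its fitted value was -0.03 with a 95% interval of -0.14 to 0.08 (limma adjusted p = 0.696). Elovl6 was lower relative to 2D than Elovl5 on every array, by -0.50 ± 0.12 (SD, n = 4) and, on the dye-swap array, -1.07.

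Among the desaturases, Fads1 and Fads2 fell by close amounts. Fads1 (chr1:216252605-216267618) had ratios of -1.36, -1.55, -1.22 and -1.16, and -1.21 on the dye-swap array. Its signal was 1085, 949, 1267 and 1316 in the 3D replicates and 1134 in the 3D pool, against 2790, 2773, 2943, 2933 and 2622 in the 2D channels. The highest 3D value was still well below the lowest reading of the 2D pool. Fads2 (chr1:216132277-216172190) had ratios of -1.44, -1.49, -1.17, -1.23 and -1.26. Its signal was 186, 177, 234, 226 and 219 in 3D, against 504, 500, 527, 529 and 522 in 2D. For both genes replicates 1 and 2 showed the larger differences and replicates 3 and 4 the smaller. Fads1 was at 0.407 of the 2D level (-1.30 ± 0.06, SE, limma adjusted p = 3.32e-07) and Fads2 at 0.401 (-1.32 ± 0.06, SE, limma adjusted p = 2.18e-07), ranks 67 and 61 from the lowest of all genes. The difference of Fads2 minus Fads1 was -0.01 ± 0.07 (SD, n = 4) and -0.05 on the dye-swap array. That closeness depended on the added constant, and Fads2 was the dimmer spot. Without the constant Fads2 was at -1.60 and Fads1 at -1.36, and with processed signals they were at -1.69 and -1.41. Scd (chr1:253218968-253232101), a stearoyl-CoA desaturase that makes oleate from stearate, was not well above background on any of the 5 arrays in 3D or in 2D, and no fold change is given for it.

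In the order of the fitted values, with Scd left out, Fads2, Fads1, Acss2, Fasn, Elovl6, Acly, Acaca, Elovl5 and Me1, the 95% intervals of neighbours overlapped except between Fads1 and Acss2, between Acaca and Elovl5 and between Elovl5 and Me1. Acss2 lay 0.34 ± 0.21 above Fads1, and Elovl5 lay 0.33 ± 0.16 above Acaca (SD, n = 4 replicate arrays), each on all 5 arrays, whereas Me1 lay above Elovl5 on 4 of them. This order depended on the added constant. Without it Elovl6 (-0.83) lay below Fasn (-0.79), and Acaca (-0.67) lay below Acly (-0.43). With processed signals Elovl6 was at -0.92, Acaca at -0.89, Fasn at -0.81 and Acly at -0.42, so that Acly was the smallest fall that passed. With the constant, the ranks of the called enzymes among 15154 genes, counted from the lowest, ran from 61 for Fads2 to 1093 for Acaca.

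**Figure D3:**
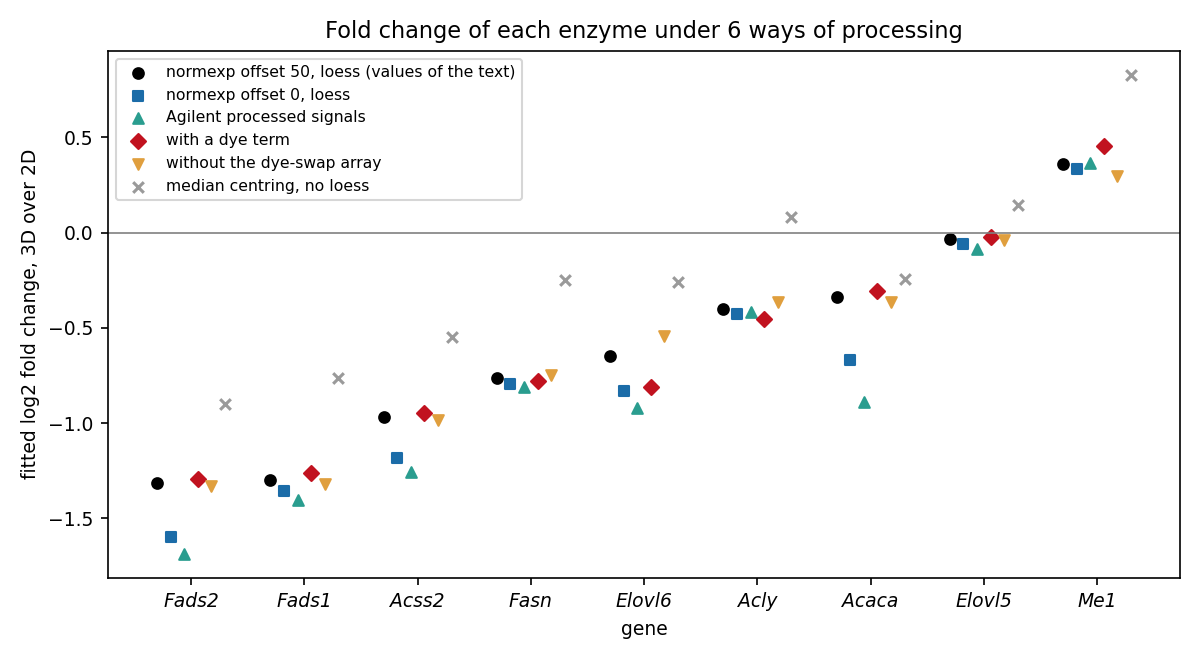
Fitted log2 fold change, 3D over 2D, of the 9 enzymes above background under 6 ways of processing, each with its own symbol. Values of Acaca, Fads2, Acss2 and Elovl6 lie lower without the added constant (-0.67, -1.60, -1.18 and -0.83), and those of Fasn and Acly hardly move (-0.79 and -0.43). With arrays centred on their median in place of loess, values shift upward for all 9 and Acly lies at 0.08.

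Relatives of the desaturases that are not among the 10 genes showed the same direction in part. Of 9 other measured desaturases and electron carriers 3 were lower and 2 higher, beside 11.5% lower and 14.4% higher of all genes. Fads3 (chr1:216110547-216127431), the third gene of the Fads cluster, whose product acts on sphingoid bases and trans-vaccenate, had ratios of -1.41, -1.84, -1.53 and -1.62, and -1.89 on the dye-swap array. It was at 0.317 of the 2D level (-1.66, limma adjusted p = 2.28e-07), and its difference from Fads1 was -0.28 ± 0.17 (SD, n = 4), with the same sign on all 5 arrays. Fads3, Fads2 and Fads1 lie in that order within 157072 bases of chromosome 1, and 80414 bases separate Fads2 from Fads1. Scd2 (chr1:253118377-253131436), the isoform that in mouse is prominent in brain and in developing tissue, had ratios of -1.32, -1.21, -1.30, -1.34 and -1.39. Unlike Scd it was well above background on all arrays, with a signal of 1305, 1420, 1276, 1227 and 1334 in 3D against 3255, 3290, 3145, 3102 and 3501 in 2D (fitted -1.31, limma adjusted p = 5.25e-08). The electron carrier Cyb5b was lower (-0.50), whereas Cyb5r3, a cytochrome b5 reductase, was higher (0.24), as was Degs1, the ceramide-forming desaturase (0.50). Cyb5r3 lost its call with 5 of 15 alternative settings, among them without replicate 3 or replicate 4 (limma adjusted p = 0.0109 and 0.0112). Another reductase, Cyb5r1, had 0.94, 0.91, 0.93 and 1.06 on the replicates but -0.32 on the dye-swap array. Its fitted 0.70 did not pass (limma adjusted p = 0.0109), and with a dye term its 0.32 did (limma adjusted p = 0.000497).

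**Figure D4:**
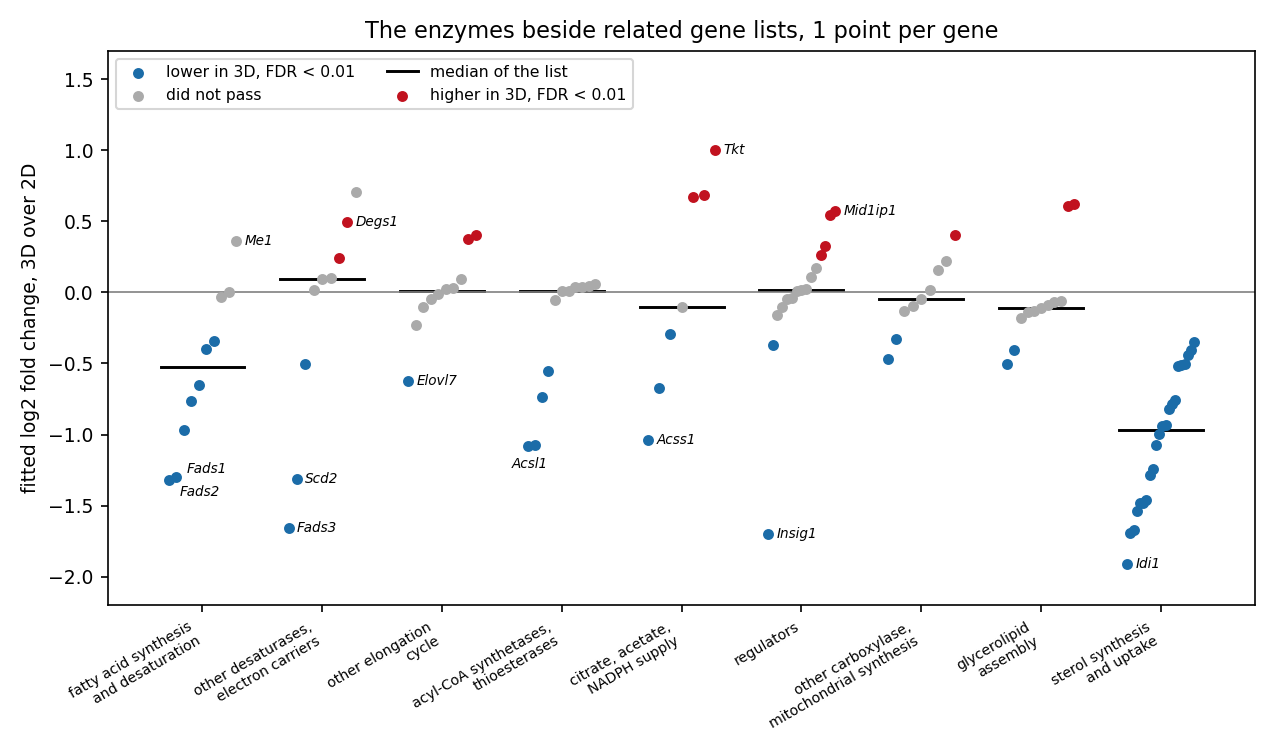
Fitted log2 fold change, 3D over 2D, of each measured gene in the 10 enzymes (left) and in 8 related lists, 1 point per gene in order of value, with the black line at the median of a list. Blue points were lower and red points higher in 3D at an FDR below 0.01, and grey points did not pass. The medians are -0.52 for the 10 enzymes with Scd included, -0.10 for citrate, acetate and NADPH supply and -0.97 for sterol synthesis and uptake.

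Genes that feed the pathway moved in both directions. Of 7 genes of citrate, acetate and NADPH supply, 3 were lower and 3 higher, with a median of -0.10. By the same test 11.5% of all genes were lower and 14.4% higher. Lower were Acss1, the mitochondrial acetyl-CoA synthetase (-1.03, and -1.56 without the added constant or -1.80 with processed signals), Slc25a1, the carrier that exports citrate from mitochondria (-0.67), and citrate synthase Cs (-0.29). Higher were the pentose phosphate enzymes Tkt (1.00) and Taldo1 (0.68), along with Idh1, a cytosolic dehydrogenase that yields NADPH (0.67). Ratios of Tkt were 1.27, 1.09, 1.02 and 1.20 on the replicates and 0.42 on the dye-swap array, and those of Taldo1 were 0.79, 0.56, 0.63, 0.60 and 0.83. The dye-swap array showed the smallest difference for Tkt and the largest for Taldo1, and with a dye term Tkt still passed at 0.78.

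Of 10 other elongation cycle genes 1 was lower and 2 higher, counts near the shares over all genes (11.5% lower and 14.4% higher). The elongase Elovl7 was lower (-0.62), with -0.59, -0.83, -0.78 and -0.73 on the replicates and -0.19 on the dye-swap array. It was at -0.97 without the added constant and at -1.16 with processed signals, where it did not pass (limma adjusted p = 0.0185). Without the dye-swap array 2 genes of this list were lower. Hacd3, a dehydratase of the cycle, was higher (0.41). Tecr, its final reductase, was at 0.38 and passed under only 6 of 15 alternative settings, and it lost its call without each replicate in turn (limma adjusted p = 0.0309 to 0.0434). Its ratio on the dye-swap array was -0.10, opposite to the 4 replicates, and with a dye term its value was 0.20. Of 9 genes of the mitochondrial carboxylase and synthesis list, Ndufab1, the mitochondrial acyl carrier protein (-0.47, or -0.28 as the mean of its probes), and Mecr, its enoyl reductase (-0.33), were lower and Mlycd, malonyl-CoA decarboxylase, was higher (0.40), and without the dye-swap array 3 were higher. Acacb, the carboxylase of the mitochondrial surface, had a value of -0.13 that did not pass.

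Activation of fatty acids gave 4 lower and 0 higher of 11 genes, beside 11.5% lower and 14.4% higher of all genes. The long-chain acyl-CoA synthetases Acsl1 (-1.08), Acsl4 (-1.07), which prefers arachidonate, and Acsl3 (-0.73) were lower, as was the peroxisomal thioesterase Acot8 (-0.56). Acsl1 had ratios of -1.24, -1.03, -1.20, -1.11 and -0.82, and Acsl4 had -0.99, -1.09, -1.06, -1.05 and -1.16. In glycerolipid assembly 2 of 11 were lower, the acyltransferase Agpat3 (-0.50) and Pcyt2 of phosphatidylethanolamine synthesis (-0.41), and 2 were higher, the phosphatidate phosphatase Lpin2 (0.62) and the triglyceride-forming acyltransferase Dgat1 (0.61). Without the dye-swap array 4 were lower.

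Among 15 measured regulators 2 were lower and 4 higher, beside 11.5% lower and 14.4% higher of all genes. However, 2 regulators were higher without replicate 4 or without the added constant. There were 3 higher without any other replicate, and 1 lower without replicate 1. Insig1, which retains the sterol regulatory element binding proteins in the endoplasmic reticulum and is itself one of their target genes, was at 0.308 of the 2D level (-1.70 ± 0.11, SE, limma adjusted p = 2.35e-06). Its ratios were -2.15, -1.31, -1.82 and -1.81, and -1.40 on the dye-swap array, all far below 0. Srebf2, the isoform tied mainly to sterol genes, was at -0.37 (limma adjusted p = 0.00308), and without replicate 1 it did not pass (-0.34, limma adjusted p = 0.0157). Nor did it pass without the added constant (-0.40, limma adjusted p = 0.0260) or with processed signals (-0.43, limma adjusted p = 0.01004). Higher were Mid1ip1, which promotes assembly of acetyl-CoA carboxylase (0.57), the oxysterol receptor Nr1h2 (0.54), Scap, which escorts the binding proteins to the Golgi (0.33), and Prkaa1, a catalytic subunit of AMP-activated kinase (0.26). The regulators Mlxipl, Nr1h3 and Thrsp were not well above background in either condition, and Srebf1 was not analysed here.

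Sterol synthesis and uptake genes, which share regulators with the 10 enzymes, were lower in 3D in 22 of 22 cases (11.5% over all genes). Their median was -0.97, against -0.52 for the 10 enzymes with Scd included, or -0.65 without dim genes. Idi1, an isomerase of the mevalonate pathway, was at -1.91, and Acat2, the cytosolic thiolase that supplies acetoacetyl-CoA, was at -1.70. The sterol genes ran from -1.91 to -0.35, a range that held 6 of the 7 lower fatty acid enzymes, and Acaca lay just above it at -0.34. These values hold with the added constant. Without it Acaca was at -0.67 and the median of the 10 enzymes at -0.73, and no sterol median or range is given for that setting. No test of the difference between the groups was made.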

How the data were processed

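RNA of FRT cells on day 5 was compared on 5 Agilent 2-colour arrays. The spot and background intensities deposited by the authors are median pixel values read by Feature Extraction 10.7.3.1 and are not normalized. The deposited scanner files also hold processed intensities, background-subtracted and dye-normalized by that software, and log10 ratios of them. The authors' value table holds log2 ratios made, per the methods, with limma by normexp, then loess (within arrays) and quantiles (between them). All its columns run 3D over 2D (r of 0.995 to 0.998 with the ratios used here).

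Here, median signals were corrected by normexp with an offset of 50, which compresses fold changes of dim genes, and normalized by loess with control spots at weight 0 and by quantiles of average intensity, in R 4.3.3 with limma 3.58.1. Flagged spots were left out and spots of a probe averaged. Symbols came from a RefSeq table of GRCr8, matched by accession to an array annotated on rn4. Of 30367 probes 17998 had a symbol, for 15154 genes, each read from its brightest probe. Ratios were tested against 0 with limma, the dye-swap array with its sign turned, and p-values were adjusted by Benjamini-Hochberg over all genes at an FDR of 0.01. The dye-swap array holds pools of the same cultures and is not an independent replicate. The number of arrays limits the precision. The fit was tested on simulated data.

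Alternatives were another offset, the scanner software's processed signals, median centring, other quantile steps, the deposited table, a dye term, leaving out each array, other probe rules, a filter on dim genes, array weights and an FDR of 0.05. Named were the 10 enzymes and, from each related list, at most the 2 largest rises and the 2 largest falls that passed and were well above background, or, with none past the test, the 2 that changed most. Idh1, Cs, Cyb5b, Cyb5r1, Acsl3, Acot8, Scap, Prkaa1, Acacb, Col3a1, Cldn7 and the genes not above background were named in addition, after their values were seen. The 10 enzymes and the lists were chosen with earlier results of these data known. Some genes of the lists are not reported here, and counts and medians are over the others. RefSeq windows were not available for Acaca, Fasn and Elovl6.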

Additional observations from a re-analysis of the deposited data

Results flagged for a closer look

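Of the 36 genes checked for a replicate array far from the other 3, namely the 10 enzymes and 26 genes of related lists, 1 stood out, and chance alone gives about 1 in 20. For Acat2 the log2 ratio of 3D over 2D was -1.68 in replicate 2, against -1.647, -1.649 and -1.651 in the other replicates, a gap of 0.881 of a range that was itself narrow (SD 0.0157, n = 4). The dye-swap array gave -1.85. None of the 10 enzymes met this criterion, and Me1 came nearest, with a gap of 0.685 of the range for replicate 2.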

How the results depend on the processing

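The 7 enzymes that were lower kept their direction and their call with every alternative except median centring of the arrays in place of loess, under which 0 of the 10 were lower, and in that setting 0 of 15154 genes were lower and 7 higher, against 1741 and 2177 with loess (100% against 55.6% of called genes higher). With the offset of 0 the calls over all genes were 1044 lower and 1178 higher. At an FDR of 0.05, 1 enzyme, Me1, was higher. The median log2 fold change of the enzymes, -0.52, was -0.73 with an offset of 0, -0.85 with Agilent processed signals, -0.25 with median centring, -0.57 with the deposited table, -0.62 with a dye term, -0.45 without the dye-swap array, -0.40 with the mean of all probes, -0.65 without dim genes and -0.48 with array weights, and -0.55 to -0.53 without each 3D replicate. Median centring reversed Acly (0.0843), Elovl5 (0.14), Srebf2 (0.17), Ndufab1 (0.0628), Mecr (0.0878) and Pcyt2 (0.0447). Without each 3D replicate in turn Elovl5 ran from -0.055 to 0.012. No fold change of Scd, above background on no array, is printed under any setting. Its value counts in the medians above, except in the one without dim genes. The cause was not tested. Without median centring, 125 of 126 alternative values of 9 enzymes kept direction and call and 1, Elovl5 without replicate 3, changed sign, and for the 26 named list genes 348 of 364 did and 16 lost their call (Tecr, Cyb5r3, Srebf2 and Elovl7). No paired analysis was possible because the 2D side was 1 pool. Dim spots limit Acaca, Elovl5 and Scd.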
